A study of Mus musculus with 36 samples.

Results

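The regions described here are 464 CpG clusters of the mouse genome in which DNA methylation covered a wide span of levels, with an edge between a low and a high side. A CpG cluster was a run of at least 20 listed positions, each at most 100 bp from the next. The clusters were chosen by their methylation levels in the Control series. Each autosomal position with a value in all 36 samples was averaged over the 18 Control samples, and a cluster was kept when its highest and its lowest position mean differed by at least 50 percentage points. Of 18009 clusters, 16391 were autosomal and held such positions, and the 464 regions were 2.83% of them. The difference between highest and lowest position, called the range below, is therefore a description of how the regions were selected and was not tested.

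Reduced representation bisulfite sequencing (RRBS), which reads methylation at cytosines near the cut sites of the enzyme MspI, was measured in B3, a mouse pre-B cell line. The Ikaros series carried an MSCV retroviral vector encoding HA-Ikaros, the haemagglutinin-tagged wild type lymphoid transcription factor, fused to the ERt2 estrogen receptor domain and followed by IRES-GFP. The Control series carried an MSCV vector with ERt2 and IRES-GFP alone, and both were sorted on GFP. Each series was collected at 0, 2, 6, 12, 18 and 24 h in 3 replicates, which gave 12 conditions of 3 samples. The labels give 0.5 uM 4-OHT (4-hydroxytamoxifen, which activates the fusion protein) for all samples, while the study's methods describe the 0 h samples as collected without it. Both series derive from 1 cell line, and each was made by its own transduction, so what came with a transduced population cannot be told apart from the construct. A difference between the series is given below over all times, and a change over time within a series is given separately.

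Methyl groups on the cytosines of CG dinucleotides cover most of a mammalian genome, while CG-rich islands at many promoters stay free of them. The border of such an island is a place where the level can go from near zero to near full over a short stretch of DNA. Methylation over a promoter island is associated with silencing of the gene, and methylation within the transcribed part of a gene is common in genes that are expressed.

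The selected clusters differed in how much of the methylation scale they covered, and a minority went from nearly unmethylated to nearly fully methylated. Their range had a median of 65.7 percentage points and reached 98.7. The highest position of a cluster had a median level of 91.6% in Control and the lowest position one of 6.34%. In 89 clusters (19.2%) the lowest position was under 10% and the highest over 90%, and 70 clusters had a range of at least 90 percentage points, whereas 173 had one under 60. The clusters were long, with a median of 626 bp against 408 bp for all autosomal clusters, and held fewer CG dinucleotides per 100 bp (median 8.04 against 9.48).

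The edge of a cluster was set at the first point, going from its lowest to its highest position, at which the Control mean crossed halfway between both. Positions at or above the halfway level form the high side and the others the low side. In 378 clusters (81.5%) the level crossed halfway once, so that the cluster had 1 low and 1 high end. Another 60 crossed it 2 times, of which 45 had a low stretch between high flanks and 15 the reverse, and 26 crossed it at least 3 times. The distance over which the level rose from 25% to 75% of the range had a median of 71.6 bp and lay between 23.2 and 694 bp. In 347 clusters (74.8%) at least 50% of the range fell within 100 bp, while 117 had a more gradual slope and their edges were not steep in this sense. The deposited levels had been smoothed along the cluster by the authors, so the steepness of the underlying change cannot be read from these widths.

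How exactly an edge could be placed depended on the spacing of the measured positions. The interval between the last position below and the first one above halfway had a median of 49 bp. It was at most 25 bp in 131 clusters and over 100 bp in 57, with a maximum of 807 bp. In 4 clusters no measured position lay between the highest and the lowest, so their edge could not take another place.

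The sequences of 4 edges show the DNA on which the level changed. They have the narrowest such intervals of the named clusters whose window touches no untranslated region. Each window holds 300 bases of GRCm38 centred on the edge and is written 5′ to 3′ on the forward strand. Capitals mark the CG dinucleotides whose Control mean was at or above the halfway level, and all other bases, CG dinucleotides below halfway or without a complete value included, are in lower case. The window of Bend4 is chr5:67426946-67427245, that of Mocs3 is chr2:168230991-168231290, that of Synj2 is chr17:5940849-5941148 and that of Foxd2 is chr4:114908297-114908596.
Bend4: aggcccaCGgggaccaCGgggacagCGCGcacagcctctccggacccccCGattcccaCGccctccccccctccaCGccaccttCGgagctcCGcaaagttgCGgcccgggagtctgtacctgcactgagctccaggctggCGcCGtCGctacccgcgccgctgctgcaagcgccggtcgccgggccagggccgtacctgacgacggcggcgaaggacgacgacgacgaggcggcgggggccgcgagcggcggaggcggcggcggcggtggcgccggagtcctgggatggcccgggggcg
Mocs3: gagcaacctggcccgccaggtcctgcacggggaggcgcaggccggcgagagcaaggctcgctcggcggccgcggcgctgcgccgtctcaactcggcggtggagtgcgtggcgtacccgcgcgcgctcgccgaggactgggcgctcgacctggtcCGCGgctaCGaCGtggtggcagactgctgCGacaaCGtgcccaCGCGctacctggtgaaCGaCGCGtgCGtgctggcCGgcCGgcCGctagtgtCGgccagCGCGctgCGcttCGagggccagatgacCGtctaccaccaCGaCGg
Synj2: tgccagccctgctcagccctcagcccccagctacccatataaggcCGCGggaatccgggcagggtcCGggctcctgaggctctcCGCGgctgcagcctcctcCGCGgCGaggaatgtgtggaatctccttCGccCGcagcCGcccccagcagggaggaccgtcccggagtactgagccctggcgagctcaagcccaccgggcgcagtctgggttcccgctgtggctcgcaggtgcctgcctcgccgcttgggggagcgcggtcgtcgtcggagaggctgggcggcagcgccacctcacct
Foxd2: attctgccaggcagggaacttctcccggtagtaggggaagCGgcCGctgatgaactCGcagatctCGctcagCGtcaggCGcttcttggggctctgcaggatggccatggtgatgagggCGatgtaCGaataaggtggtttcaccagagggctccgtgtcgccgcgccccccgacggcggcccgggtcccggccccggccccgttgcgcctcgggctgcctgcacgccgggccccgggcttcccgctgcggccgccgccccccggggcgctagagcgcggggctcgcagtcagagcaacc

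In all 4 windows the CG dinucleotides above halfway stood together on 1 side, and CG dinucleotides were listed on both sides of the edge. The Mocs3 window held 48 CG dinucleotides, 23 of them above halfway and 24 below, and its Control mean was 28.1% over the first 150 bases and 82.8% over the last 150. In the Synj2 window 11 CG dinucleotides were above and 14 below halfway, with means of 69.1% and 7.14%. The Foxd2 window had 8 above and 11 below, at 88.2% and 31.4%, and the Bend4 window 13 above and 25 below, at 75.2% and 31.9%. The high side lay toward the body of the gene for Mocs3, Foxd2 and Bend4 and away from it for Synj2, where the promoter side was low.

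Over all members the low side was somewhat richer in G and C. In the 150 bp on each side of the edge, the GC content had a median of 65.3% on the low side and 62.7% on the high side and was larger on the low side in 299 of 464 clusters. CG dinucleotides were more frequent on the low side in 254 clusters, less frequent in 176 and equal in 34, with medians of 7.0 and 6.0 per 100 bp. This difference in CG frequency was seen at edges near promoters and was not tested, and GC content was not split by distance. Near a transcription start the medians were 8.0 and 6.67 per 100 bp, and the low side had more in 199 of 332 clusters, whereas farther away both medians were 5.33 and the low side had more in 55 of 132. The ratio of observed to expected CG was larger on the low side in 232 clusters and larger on the high side in 232. The hexamer TGGGAA, a core of the Ikaros recognition sequence, searched on both strands, occurred in the 300 bp around the edge of 100 members (21.6%) and around the same point in 17.4% of all autosomal clusters. Among the members its share was 25.5% where the edge position differed between the series and 19.1% where the mean level did, and such a match is not a binding site.

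Most edges lay at promoters, as did most CpG clusters. Of the 464 edges, 332 (71.6%) were within 1000 bp of a transcription start of a protein-coding gene, against 77.0% of all autosomal clusters placed in the same way. The median distance was 348 bp for members and 240 bp for all clusters. The edges lay downstream of the start in 201 cases and upstream in 131. By the annotation, 148 edges (31.9%) were in an intron, 107 (23.1%) were intergenic, 95 (20.5%) were in a coding exon, 75 (16.2%) in a 5′ untranslated region, 32 (6.90%) in a noncoding exon and 7 (1.51%) in a 3′ untranslated region. Against the centres of all clusters, introns (25.4%) and intergenic sequence (15.5%) had larger shares among the edges, and 5′ untranslated regions (26.4%) a smaller one.

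The low side of an edge mostly faced the transcription start. This held for 236 of the 332 edges near a start (71.1%), for 161 of 201 downstream edges (80.1%) and for 75 of 131 upstream edges (57.3%). For edges over 5000 bp from any coding start the share was 44.6% (33 of 74). Clusters with a smaller range, from 20 to 50 percentage points, had their low side toward the start in 58.1% of 866 cases. The orientation was not used to choose the clusters, but these shares are a description and were not tested.

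Edges right at a start mostly had their high side in the direction of transcription. Of the 35 edges within 100 bp upstream of a start, 30 (85.7%) had their high side downstream, so that the level rose across the start into the gene. Of the 45 edges within 100 bp downstream, 35 (77.8%) had their high side downstream too. Beyond 200 bp upstream this share was 15 of 58 (25.9%), since there the methylated side mostly lay outside the promoter, and beyond 200 bp downstream it was 96 of 122 (78.7%). The clusters of smaller range had their high side downstream in 73 of 112 cases (65.2%) within 100 bp upstream and in 91 of 132 (68.9%) within 100 bp downstream. Averaged over members in windows of 200 bp, the Control level was 28.9% just upstream of the start, 38.1% just downstream, 53.2% at 400 to 600 bp and 66.2% at 1000 to 1200 bp downstream, and the Ikaros levels were 30.7%, 40.1%, 54.8% and 69.2%. The Control medians over members were 17.4%, 34.3%, 55.9% and 90.4%, the last one from 23 clusters. The other clusters also had larger means farther downstream, at 29.2%, 31.2%, 39.6% and 59.9%, with medians of 0.475%, 0.705%, 2.49% and 93.6%.

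**Figure D1:**
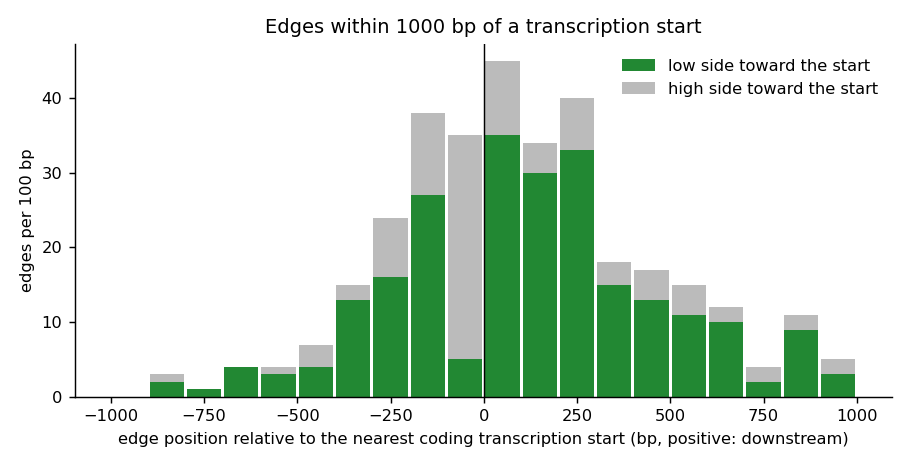
Number of edges per 100 bp (vertical axis) by distance from the nearest transcription start of a protein-coding gene (horizontal axis, bp, downstream positive), for the 332 edges within 1000 bp. Green bars are edges whose low side lies toward the start and grey bars those whose high side does. Over all bins 236 edges are green, while in the 100 bp just upstream 30 of 35 edges have their high side toward the start.

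The 10 clusters with the largest range, outside chromosome 18, belonged to genes of varied function, and in 9 of them the edge lay within the first 1000 bp around a start. They were Socs3, an inhibitor of cytokine signalling, Vgf, which encodes a neuropeptide precursor, Bend4, Foxd2, a forkhead transcription factor, Ddx17, an RNA helicase, Epop, a partner of Polycomb repressive complex proteins, Kdm2a, a histone demethylase that binds unmethylated CG islands, Tmem121b, Mocs3, an enzyme of molybdenum cofactor synthesis, and Phlpp1, a protein phosphatase. Their ranges lay between 97.8 and 98.7 percentage points. The exception was Vgf, whose edge was 1389 bp downstream of the start, in a coding exon.

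The Socs3 cluster (chr11:117967795-117969565) had its edge in an intron, 418 bp downstream of the start. Going outward from the start side, the Control level was 0.998% ± 0.774 (SD, n = 18) at 400 to 500 bp before the edge, 18.3% ± 5.90 at 100 to 200 bp before it and 94.4% ± 3.12 at 200 to 300 bp beyond it. The Foxd2 edge (chr4:114907185-114909635), 427 bp downstream of the start in the coding exon, was steeper. Its level was 9.36% ± 4.39 at 100 to 200 bp before the edge, 42.9% ± 4.66 in the last 100 bp, 85.6% ± 1.92 in the first 100 bp of the high side and 96.5% ± 1.44 in the next. At Ddx17 (chr15:79546508-79547556) the edge lay 176 bp upstream of the start, and the level went from 2.46% ± 1.18 in the last 100 bp of the low side to 86.9% ± 7.34 in the first 100 bp of the high side. Kdm2a (chr19:4397036-4398489) had the high side toward the nearest start, as did Vgf, while the other 8 had the low side there.

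**Figure D2:**
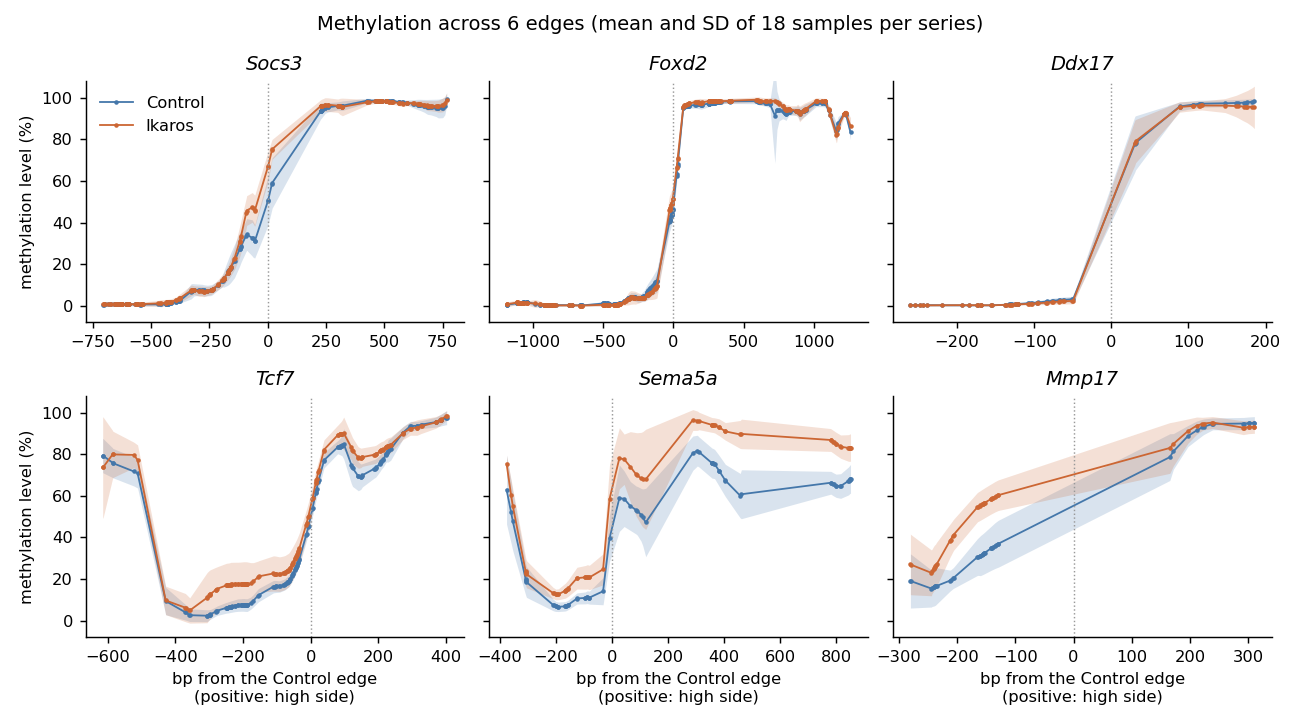
Methylation level in % (vertical axis) against the distance in bp from the Control edge, positive toward the high side (horizontal axis), at 6 clusters, with points at measured positions and bands for the SD of 18 samples in the Control (blue) and the Ikaros series (orange). At Ddx17 the curves nearly coincide, at Foxd2 the Ikaros curve is higher in the last 100 bp before the edge (48.2% against 42.9%), at Socs3 the Ikaros curve is higher mainly before and at the edge, at Mmp17 mainly on the low side, with no measured position at the edge itself, and at Sema5a it is higher on both sides.

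Clusters just inside and just outside the threshold differed little in range. The members with the smallest ranges were at Plxdc1 (50.1 percentage points), Gnb2, a G protein subunit (50.2), and Tmem74 (50.2). The nearest clusters left out were at Nrf1 (49.9), Frg2f1 (49.98) and Creb3l1 (49.9996). With a threshold of 40 percentage points 727 clusters would have been kept, and with 60 there would have been 291.

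Few clusters at the starts of the listed genes were members, as was the case for clusters in general. Of 23 B-lineage transcription factors, 19 had a cluster within 1000 bp of a start. None of these 32 clusters was a member, which at a share of 2.83% over all autosomal clusters is not a result about the group. The median Control level of those clusters was 0.633% and their median range 0.689 percentage points. Among 20 genes of the pre-B receptor and its signalling 7 had a cluster and 1 an edge (Socs3). Among 16 transcription factors of other blood lineages 13 had a cluster and 1 an edge (Tcf7), among 21 chromatin genes 19 and 1 (Dnmt3a), and among 17 genes of glycolysis and growth 16 and 1 (Cdkn2a). Of 24 imprinted genes 17 had a cluster and none an edge near a start. Of 189 developmental factors 155 had a cluster and 10 an edge, with 4.0% of their 275 clusters being members against 2.83% of all autosomal clusters.

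As markers of the labelled cell type, the starts of Pax5, Ebf1 and Vpreb1, genes of early B cells, had clusters with Control means of 0.938%, 0.243% and 0.293%, while Cd79a, Cd79b, Igll1, Blnk and Rag1 had no cluster. Clusters at the starts of the T-cell gene Bcl11b and the myeloid gene Cebpa were between 97.8% and 98.3%, and those of Gata3, of T cells, were at 97.7%, 42.4% and 9.01%. The cluster of the myeloid gene Cebpe was at 84.7% with a range of 26.0 percentage points, and that of the erythroid gene Klf1 was at 1.58%. Methylation levels are no measure of expression and do not name a cell type.

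Tcf7, a transcription factor of T cells, was the member among the markers. Its cluster (chr11:52282572-52283697) had a range of 95.2 percentage points, and the edge lay 68.8 bp upstream of the start in an intron of an overlapping gene, with the high side toward the start. The Control level was 24.5% ± 2.80 (SD, n = 18) in the last 100 bp of the low side and 73.7% ± 2.65 in the first 100 bp of the high side. Another high stretch, at 73.5% ± 5.95, lay 500 to 600 bp away on the other flank, so the cluster crossed halfway 2 times. Dnmt3a, a DNA methyltransferase gene, had an edge 889 bp downstream of a start (chr12:3807517-3808230) with a range of 90.6 percentage points and a width of 48.1 bp. At Cdkn2a, an inhibitor of the cell cycle, the range was 52.1 percentage points and the edge lay 269 bp upstream (chr4:89294195-89295118).

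The developmental factors with an edge near a start were Dlx2, Foxa3, Foxc1, Foxd2, Hoxb7, Hoxd3, Irx5, Lhx2, Pax2 and Wnt10b. Their named clusters had ranges from 52.8 percentage points (Lhx2) to 98.2 (Foxd2). They fell into different kinds of profile. Lhx2 and Foxc1 had Control means of 14.3% and 14.2% over the whole cluster, so that the edge led into a short high stretch. Hoxd3, Hoxb7 and Pax2, with means of 90.2%, 87.4% and 86.1%, were methylated clusters with a dip, whose lowest positions were at 30.7%, 29.7% and 37.9%.

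The question of stability was whether the same positions differed in the Ikaros series, whose columns had no part in the choice apart from the requirement of complete values. At the positions that were highest and lowest in Control, the Ikaros mean differed by at least 50 percentage points in 388 of 464 clusters (83.6%). The Ikaros minus Control difference of this height had a median of -0.477 percentage points and a range from -28.7 to 23.9. It was below 0 in 249 clusters and within 10 percentage points in 383 (82.5%). The height was smaller in Ikaros by at least 20 percentage points in 14 clusters and larger by that much in 2.

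Some shrinkage belongs to the choice itself, because the extremes were picked in Control. When clusters were picked on the Ikaros columns instead, 463 passed, and 86.2% of them were members. At their Ikaros extremes the Control height was smaller in 324 of 463 clusters, with a median difference of -2.29, while at the Control extremes the Ikaros height was smaller in 249 of 464. The Control height was at least 50 percentage points in 393 of the 463 (84.9%). Heights between the series were therefore not tested. In the 10 clusters of largest range, which lie close to the end of the scale, the height at the same positions in Ikaros was between 95.1 percentage points at Ddx17, from 98.1 in Control, and 98.9 at Foxd2, from 98.2. Epop was at 98.0 and 96.8 and Socs3 at 98.7 and 98.1.

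**Figure D3:**
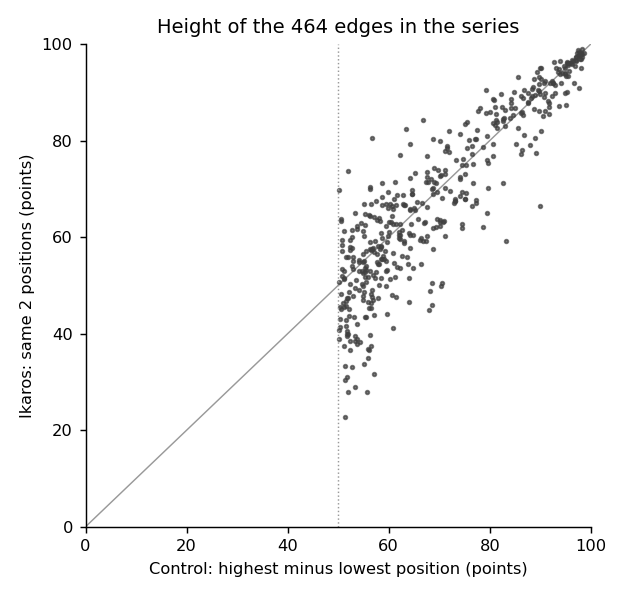
Each of the 464 points is a cluster, with the difference between its highest and lowest Control position in percentage points (horizontal axis) and the difference of the same positions in the Ikaros mean (vertical axis). The line marks equality and the dotted line the threshold of 50. Points lie along the line, within 10 percentage points of it in 383 clusters, and 388 lie above 50 on the vertical axis.

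Before the tests, some libraries and features of the tables that touch them are given. The number of reads behind a level is unknown, since neither table gives coverage. In Control 0 h replicate 1, 11.6% of values were empty, against 0.110% to 11.6% over Control and 0.139% to 3.18% over Ikaros. The share of levels at exactly 0 or 1 was 21.0% to 36.2% in Control and 26.9% to 59.1% in Ikaros samples. The step, which is the mean of the high side minus the mean of the low side in a sample, was below 0 in 25 members in Control 0 h replicate 1, in 18 in Ikaros 24 h replicate 2 and in at most 7 in every other sample.

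The mean level over the whole cluster differed between the series in many members, mostly with the higher level in Ikaros. With limma and Benjamini-Hochberg adjustment over 16381 clusters, 115 of 464 members passed an adjusted p of 0.05 (24.8%), 94 higher and 21 lower in Ikaros. The background over all clusters was 4.85%, made up of 3.74% higher and 1.11% lower. Called shares were also high at intermediate levels. Among clusters that are no members and had a Control mean from 10% to 90%, 16.8% were called, and among the 364 members in that band 102 (28.0%). Without Control 24 h replicate 2, which at the called members lay 62.1% of the way from the Control to the Ikaros mean, the count was 116. The other Control samples lay between -13.2% and 15.8% of the way and the Ikaros samples between 88.7% and 116%.

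The differences between the series were mostly of moderate size and on both sides of the edge. In the 94 members called higher, the mean level was higher in Ikaros by a median of 6.14 percentage points. The low side was higher by 6.40 and the high side by 5.23, and the difference was the larger one on the low side in 53. The sides were assigned by the Control means, which by itself favours a higher low side and a lower high side in Ikaros. The sides were therefore not compared by a test. In the 21 called lower the median was -2.14 percentage points, with -4.36 on the high side and -1.57 on the low side. Because the test used M-values, 1 of these 21 had a slightly larger mean level in Ikaros (0.122 percentage points). Of the 115, 90 (78.3%) had their edge within 1000 bp of a start, beside 71.6% of all members. When the shares of empty values and of levels at exactly 0 or 1 in each sample were added as covariates, 56 members (12.1%) were called beside 1.99% of all clusters. The count was 64 (13.8%) without replicate 1, 82 (17.7%) without replicate 2 and 62 (13.4%) without replicate 3, beside 2.39%, 3.31% and 2.19% of all clusters.

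Sema5a, which encodes a semaphorin, had the smallest p. Its cluster mean was lowest at 39.9%, with a median of 43.2% and a highest value of 58.0% in Control, and lowest at 53.5%, with a median of 58.3% and a highest value of 63.4% in Ikaros. The series overlapped only through Control 24 h replicate 2, at 58.0%, as the next highest Control sample was at 48.3%. The M-value was higher by 1.56 ± 0.12 (SE, limma adjusted p = 3.36e-10), and the smallest and largest adjusted p over 45 alternatives were 3.90e-12 and 6.30e-05. The difference stood on both sides of the edge, with 15.0% ± 3.41 in Control and 26.0% ± 6.06 in Ikaros in the last 100 bp of the low side. At 300 to 400 bp into the high side the levels were 76.0% ± 7.04 and 94.2% ± 3.43 (SD, n = 18 per series).

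Itgb4, an integrin subunit gene, and Bad, a pro-apoptotic gene of the Bcl2 family, followed. The Itgb4 cluster mean (chr11:115974791-115975196) had a lowest, median and highest value of 49.8%, 59.3% and 66.8% in Control and of 64.0%, 71.1% and 78.4% in Ikaros, so that the series overlapped in a few samples. The M-value was higher by 1.04 ± 0.09 (SE, limma adjusted p = 1.05e-09). The Bad cluster (chr19:6951293-6952433) had values of 13.3%, 15.6% and 21.0% in Control and of 17.1%, 20.7% and 26.8% in Ikaros, with an M-value higher by 1.33 ± 0.12 (limma adjusted p = 7.36e-09). For both, all 45 alternatives stayed past the threshold.

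Among the listed genes, the Tcf7, Cdkn2a and Dlx2 clusters passed the same test. Tcf7 had a mean level of 44.0% ± 1.32 in Control and 49.8% ± 4.16 in Ikaros (SD, n = 18 each), and its M-value was higher by 0.67 ± 0.10 (SE, limma adjusted p = 1.83e-05). The difference was larger in the low stretch, at 5.99% ± 2.43 in Control and 16.3% ± 10.4 in Ikaros at 200 to 300 bp from the edge. At 200 to 300 bp into the high side the levels were 81.9% ± 3.41 and 84.8% ± 3.64. Cdkn2a was at 72.6% ± 4.00 in Control and 77.3% ± 3.51 in Ikaros (limma adjusted p = 0.000671). Dlx2, a homeobox gene, was at 18.7% ± 3.68 and 21.5% ± 1.89 (limma adjusted p = 0.0104). With the covariates the adjusted p was 0.00108 for Tcf7, 0.0914 for Cdkn2a and 0.354 for Dlx2. Of the 10 clusters of largest range, Mocs3 was called higher (limma adjusted p = 0.0228) and Tmem121b lower (adjusted p = 0.00110), and the other 8 were not called. The Mocs3 call was lost in 4 of 45 alternatives (largest adjusted p 0.315) and the Tmem121b call in 1 (0.195).

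The 3 members just inside the threshold were all called higher, on different sides of the edge. Plxdc1 had a cluster mean of 60.9% ± 3.85 in Control and 70.7% ± 3.28 in Ikaros (SD, n = 18 each, limma adjusted p = 3.20e-07), with a low side at 52.6% and 64.6% and a high side at 96.2% and 96.6%. Its height at the Control extremes was 50.1 percentage points in Control and 38.9 in Ikaros. Tmem74 (limma adjusted p = 0.0412) had a low side at 46.4% and 53.8% and a high side at 94.3% and 96.7%. Gnb2 (limma adjusted p = 0.0112) had the larger difference on the high side, at 49.8% and 66.9%, beside a low side at 6.37% and 8.18%, and its height was 50.2 and 69.8 percentage points. The call for Gnb2 was lost in 3 of 45 alternatives and that for Tmem74 in 29, while that for Plxdc1 stood in all 45.

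The place of the edge was measured in each sample as the point at which that sample crossed halfway between its own levels at the extreme positions, in bp from the Control edge and negative toward the low side. Where a sample crossed more than once, the point nearest the lowest position was taken. Whether this added to the shifts toward the low side was not tested. An edge was found in every sample in 402 members. Its SD over the 36 samples had a median of 17.6 bp, was at most 20 bp in 221 members (55.0%) and over 100 bp in 14. The edges were placed within less than the interval between measured positions because the crossing was interpolated, so small SDs also come from sparse positions.

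The edge position differed by few bases in most members, with more shifts toward the low side in Ikaros. Of the 398 members in the fit, 243 (61.1%) had a fitted shift toward the low side, against 51.0% of the 694 other clusters in the fit, and the median shift was -2.65 bp. The median over members was between -1.04 and 0.547 bp in the 18 Control samples, around which the edge was defined, and between -3.37 and -0.406 bp in the 18 Ikaros samples. By limma with adjustment over 1092 clusters, 51 members (12.8%) had a different edge position, 43 toward the low side and 8 toward the high side. The background was 9.98%, with 7.6% toward the low side and 2.38% toward the high side. That background includes the members. Among the 694 other clusters fitted, 58 (8.36%) were called, 40 of them (5.76%) toward the low side, beside 10.8% of members toward the low side.

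The called shifts were short beside the clusters. Toward the low side they had a median of -26.9 bp and a range from -1.75 to -189 bp, and toward the high side a median of 12.0 bp. The shift was over 50 bp in 12 of 51 members and under 10 bp in 10. Of the 43 shifts toward the low side, 33 (76.7%) were within 1000 bp of a start, beside 71.6% of all members. In 27 of these 33 (81.8%) the low side faced the start, beside 71.1% of all members near a start. In all, 18 members were called in both edge position and mean level, which is 35.3% of the edge calls, beside 24.8% of all members called in mean level, and 15.7% of the mean level calls, and 14 of them moved toward the low side with a higher mean. With the shares of empty values and of levels at exactly 0 or 1 as covariates 12 members (3.02%) and 2.56% of all clusters fitted were called, so that members and all clusters lay close together. Leaving out replicate 1, 2 or 3 gave 17 (4.07%), 25 (6.11%) or 14 members (3.41%), beside 3.67%, 4.95% and 2.98% of all clusters fitted, which is also near the background. Leaving out Control 0 h replicate 1 gave 66 members (15.9%) beside 11.2%. With the halfway level of the Control mean used in every sample, 96 of 319 members (30.1%) were called, beside 26.5% of all clusters fitted. Of these, 85 were toward the low side and 11 toward the high side. That place also shifts when the level of the cluster differs.

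Synj2, an inositol phosphatase gene, Ppm1l, a protein phosphatase gene, and Mmp17, a membrane-bound metalloproteinase gene, had the smallest p in this test. In Synj2 (chr17:5940821-5941166), whose sequence is shown above, the edge had a lowest, median and highest place of -13.0, 1.34 and 10.2 bp in Control and of -34.5, -14.3 and -0.559 bp in Ikaros. The shift was -14.0 ± 2.28 bp (SE, limma adjusted p = 0.000190), beside an interval of 18 bp between the measured positions around the Control edge. The shift was toward the transcription start, 282 bp downstream of the edge.

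In Ppm1l (chr3:69316350-69318045) the values were -21.5, 0.225 and 20.2 bp in Control and -67.9, -26.5 and -2.22 bp in Ikaros, a shift of -26.0 ± 4.27 bp (limma adjusted p = 0.000190). Its cluster mean was 14.7% ± 0.453 and 15.1% ± 0.795 (SD, n = 18 each) and was not called (adjusted p = 0.966). The halfway point moved while the level of the cluster as a whole differed by less than the spread of the samples.

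In Mmp17 (chr5:129584059-129584649) the values were -110.9, -13.5 and 119.8 bp in Control and -184.7, -146.3 and 80.4 bp in Ikaros, a shift of -125.5 ± 20.7 bp (limma adjusted p = 0.000190). Both a gap of 294 bp between the positions around its Control edge and a low side that was higher in Ikaros went with this. Its level at 100 to 200 bp before the edge was 33.5% ± 10.2 in Control and 57.3% ± 7.18 in Ikaros, and at 200 to 300 bp beyond it 93.7% ± 2.78 and 94.1% ± 2.67. The cluster mean was also called, at 46.4% ± 3.61 and 59.5% ± 4.12 (limma adjusted p = 9.60e-07). For Synj2, Ppm1l and Mmp17 the adjusted p for the edge stayed under 0.05 in all 47 alternatives, the largest being 0.0334, 0.0428 and 0.0404.

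**Figure D4:**
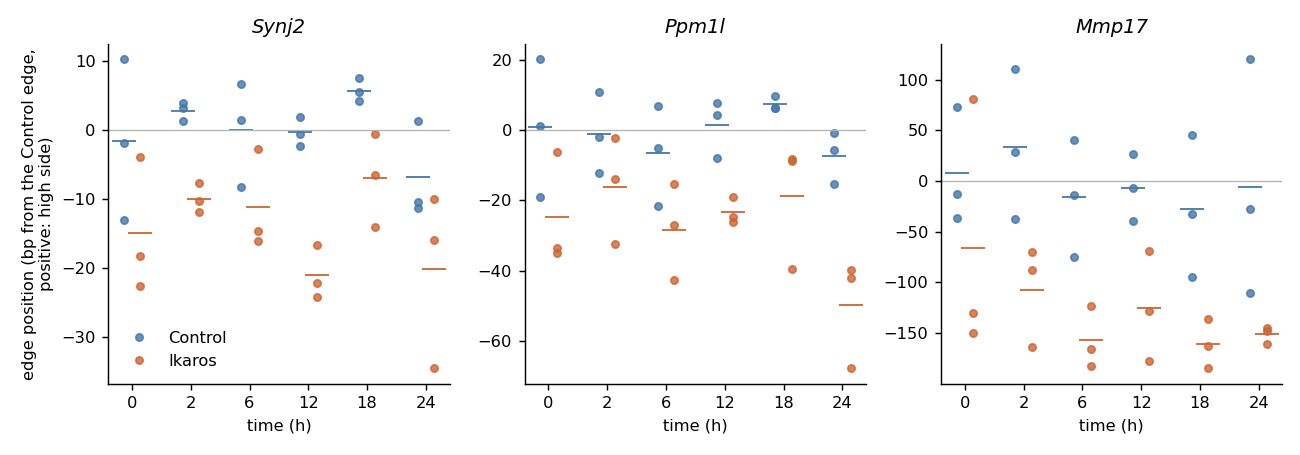
Edge position in bp from the Control edge, negative toward the low side (vertical axis), in each sample by time in h (horizontal axis) at Synj2, Ppm1l and Mmp17, with bars at the mean of 3 replicates. Ikaros samples (orange) lie lower than Control samples (blue) on average at every time, 0 h included, and single samples of the series overlap.

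Socs3, the member with the largest range, was also called. Its edge lay at -144.5, -5.89 and 60.5 bp (lowest, median, highest) in Control and at -104.0, -48.1 and -2.51 bp in Ikaros, a shift of -44.6 ± 12.8 bp (limma adjusted p = 0.0225). The level just before the edge was 32.5% ± 7.94 and 46.0% ± 6.48 (SD, n = 18 each), while the ends of the cluster differed by less than 1 SD. The call was lost without replicate 2 and without replicate 3 (largest adjusted p 0.331). Among the 10 developmental factors 2 were called as well. With 9.98% of all clusters fitted and 12.8% of members called, this is not a result about the group. They were Foxa3 with -53.6 ± 16.7 bp (limma adjusted p = 0.0356) and Hoxb7 with -95.2 ± 30.1 bp (limma adjusted p = 0.0384). These calls were lost in 13 of 47 and 20 of 46 alternatives. Foxd2, with -12.2 ± 4.11 bp, missed the threshold (adjusted p = 0.0530), as did Mocs3 with -9.51 ± 3.19 bp (adjusted p = 0.0530). Without Control 0 h replicate 1 both passed it (adjusted p = 0.0162 for Foxd2 and 0.0161 for Mocs3), and their largest adjusted p over 47 alternatives were 0.306 and 0.387.

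The edges that varied most in place belonged to clusters with a gradual or a stepped profile. The SD over 36 samples was 196 bp for Ybx2, a germ-cell RNA-binding protein gene, 185 bp for Oxr1, 176 bp for Snai1, a transcription factor gene, 174 bp for Camk2n1, a kinase inhibitor gene, and 166 bp for Ddn. In all 5 the width of the edge was over 300 bp, from 322 bp in Ddn to 644 bp in Snai1. The Ybx2 edge ranged from -249 to 195 bp in Control and from -446 to 175 bp in Ikaros. Oxr1 was the member with the largest called shift, -189 ± 51.0 bp (limma adjusted p = 0.0146), a call lost in 5 of 47 alternatives.

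At the other end, the edges of Igfbp2, Lck, a kinase gene of T cells, Fam149a and Gm21738 had no measured position between the extremes and therefore an SD of 0. Flt1, a growth factor receptor gene, had an SD of 0.0243 bp. Among the named clusters of large range, narrow SDs with many positions in between were found at Ddx17 (9.82 bp, 45 positions), Mocs3 (10.4 bp, 218 positions) and Kdm2a (11.4 bp, 95 positions). Dnmt3a and Tcf7, with 50 and 136 positions in between, had SDs of 9.44 and 10.4 bp.

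The step of the edges was not found to change over time. Its median over the 464 members was between 50.8 and 52.6 percentage points at the 6 times in Control and between 50.7 and 52.6 in Ikaros. The F test of limma on the M-values of the step called 0 members in the Ikaros series, 0 in Control and 0 for a different course between the series. The background of all clusters was 0% in Ikaros, 0.00614% in Control and 0.00611% for the difference in course. At an unadjusted p under 0.05 there were 35, 24 and 28 of 464 members (7.54%, 5.17% and 6.03%), beside 5.11%, 4.77% and 4.76% of all clusters. Without Ikaros 24 h replicate 3 there were 57 in Ikaros (12.3%, beside 6.48% of all clusters) and 55 of 464 for the course (beside 6.04%). Without Control 0 h replicate 2 there were 50 for the course (10.8%, beside 6.00%). In these fits the share of members lay above that of all clusters.

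Between the lowest and the highest time-point mean, the step of a member had a median spread of 9.23 percentage points in Control and 9.72 in Ikaros. The SD between the 3 replicates of a condition had medians of 6.70 and 6.94 percentage points. The step stayed at or above 30 percentage points at all 6 times in 395 members in Control and in 373 in Ikaros. From 0 h to 24 h it was smaller in 237 members in Control and in 228 in Ikaros, with median differences of -0.220 and 0.0174. The Foxd2 step lay between 86.0 and 89.9 percentage points in the 18 Control samples and between 88.0 and 90.3 in the 18 Ikaros samples, and the Socs3 step between 81.3 and 91.5 and between 86.4 and 89.1.

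The place of the edge over time was described in the same way. Between time-point means it had a median spread of 21.1 bp in Control and 21.6 bp in Ikaros, beside medians of 14.3 and 14.2 bp for the SD between replicates. At Tcf7 the step was 66.1 ± 1.79 percentage points at 0 h and 58.3 ± 11.1 at 24 h in Ikaros (SD, n = 3 each) and 65.5 ± 2.08 and 66.6 ± 3.91 in Control, a course that was not called. The mean edge position at 0 h was -1.60 ± 11.6 bp in Control and -14.9 ± 9.77 bp in Ikaros at Synj2 (SD, n = 3 each). It was 0.833 ± 19.6 and -24.9 ± 16.2 bp at Ppm1l, and 7.72 ± 58.0 and -66.4 ± 128 bp at Mmp17. At Socs3 the order was the other one at 0 h, with -50.2 ± 81.7 bp in Control and -29.9 ± 9.18 bp in Ikaros. The Control samples were widely spread there. Without Control 0 h replicate 1, the sample with 11.6% empty values, the Socs3 shift over all times was -53.3 bp (limma adjusted p = 0.000531). These 0 h values were not tested on their own.

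**Figure D5:**
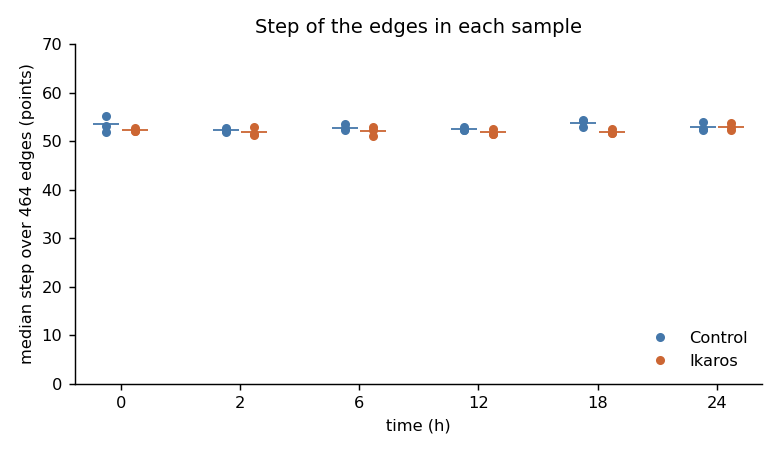
Median step over the 464 clusters in percentage points (vertical axis, from 0) in each of the 36 samples by time in h (horizontal axis), Control in blue and Ikaros in orange, with bars at the mean of 3 replicates. All samples lie between 51.1 and 55.3 percentage points, with no common rise or fall over time.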

How the data were processed

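The RRBS tables cover 36 samples, 18 of each series. As the study's methods state, reads were trimmed with Trim Galore, aligned to GRCm38 with Bismark, capped where coverage was unusually high, and methylation was then smoothed inside CpG clusters by BiSeq. The submitters' processing notes name Bismark 0.10.1 and methylKit. In one table the authors deposited these smoothed levels, written as a fraction between 0 and 1. In the other the authors deposited M-values, computed as the log2 of the level over its complement with levels limited to 0.01 and 0.99. Smoothing lends a position part of its neighbours' values, which widens a sharp change. Coverage is not part of the tables, so the depth is unknown, no counting error can be given, and precision is described by the spread between samples.

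Groups, times, replicate numbers and batches came from the labels. The replicates are repeats of the culture by the study's methods. All 36 sample columns were used. The members and gene lists were chosen with earlier results of these data known. Named clusters were the 10 of largest range outside chromosome 18, the 3 on each side of the threshold, the 3 of smallest p per test, those with an edge within 1000 bp of a start of a listed gene, and the 5 with the largest and the 5 with the smallest SD of edge position.

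Levels are given as percentages. The mean M-value of a cluster and the edge position (clusters with a range of at least 20 percentage points and an edge in every sample) were compared between the series with time as a factor, and the step over time with F tests within a series and 5 interaction terms, in R 4.3.3 with limma 3.58.1 (lmFit, eBayes) at an adjusted p under 0.05 over all clusters fitted. The code of these fits was checked on simulated clusters with known shifts, and no result given here rests on that check. Other tables were made in Python 3.11.15 with numpy 2.4.6, pandas 2.3.3 and scipy 1.17.1. Transcription starts and features came from GENCODE M21 and sequence from RefSeq GRCm38. The alternatives tried were other thresholds, spacings and extremes for the members, other start sets, levels in place of M-values, blocks, covariates, other edge definitions and samples left out.

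The labels tie replicate numbers 1 and 3 to batches 1 and 4, and number 2 to batch 2 at 0 h and batch 3 later, so the numbers mark shared batches. The deviations of the member steps from their condition means had a mean correlation of 0.00333 between samples with the same number and of -0.00121 between others. The fit with this replicate block gave 116 members for the mean level (25.0%, beside 4.91% of all clusters). For the edge position it gave 54 (13.6%, beside 10.5% of all clusters fitted).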

Additional observations from a re-analysis of the deposited data

How the results depend on the processing

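The number of clusters depended on the rule. It was 727 and 291 with thresholds of 40 and 60 percentage points, 748 with positions that had a value in at least 30 of 36 columns, 307 with the 95th and 5th percentile of the position means, 364 with the mean of the 3 highest and 3 lowest positions and 165 with positions at most 50 bp apart. Of the 464 clusters, 66.2% were among the 307 and 35.3% overlapped the 165. The share of edges within 1000 bp of a start was 76.5% with the starts of all genes, 55.0% with 1 start per gene and 78.0% within 2000 bp. The low side faced the start in 69.6% to 72.8% under the alternatives for it.

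The called mean levels numbered 56 with the shares of empty values and of end levels as covariates (12.1%, beside 1.99% of all clusters), and 62 to 82 without 1 replicate number (13.4% to 17.7%, beside 2.19% to 3.31%). The called edge positions numbered 12 with these covariates (3.02%, beside 2.56% of all clusters fitted), 96 with the halfway level of the Control mean used in every sample (30.1%, beside 26.5%), and 14 to 25 without 1 replicate number (3.41% to 6.11%, beside 2.98% to 4.95%). Leaving out 1 library gave 106 to 118 mean level calls (22.8% to 25.4%, beside 4.27% to 5.18% of all clusters). It gave 44 to 66 edge calls (11.1% to 15.9%, beside 8.70% to 11.8% of all clusters fitted). For the step over time, 1 member (0.216%) was called in Control with batch as a block, beside 0.0307% of all clusters. Leaving out 1 library or replicate number gave 0 to 1 in Ikaros, 0 to 1 in Control and 0 to 2 for the course between the series. In Ikaros it was 1 (0.216%) without Ikaros 24 h replicate 3, beside 0.147% of all clusters. Without Control 0 h replicate 2 it was 1 in Control (0.216%, beside 0.0431%) and 2 for the course (0.431%, beside 0.0672%). The cause was not tested for these changes. The replicate block gave 116 members for the mean level, 54 for the edge position and 0, 0 and 0 for the tests over time, and it moved no other count by more than 1.5 times. The fits with Control 0 h replicate 1 or Control 24 h replicate 2 left out gave 117 and 116 mean level calls and 66 and 61 edge calls.

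The Synj2 cluster mean turned direction between the scales. Its M-value was lower in Ikaros by 0.04 (adjusted p = 0.881), while its level in percentage points was higher by 2.13 (limma adjusted p = 0.00223). The edge between the extremes of the Ikaros mean and the comparison with intermediate clusters were chosen after seeing the data. The unknown coverage limits every level, and the spacing of measured positions limits every edge position.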
